A study of Mus musculus with 32 samples.

Results

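The decay of inflammatory mRNAs was described through 10 genes that encode RNA-binding proteins and ribonucleases acting on the 3′ untranslated regions of cytokine transcripts: Zfp36, Zfp36l1, Zfp36l2, Zc3h12a, Zc3h12c, Rc3h1, Rc3h2, Khsrp, Elavl1 and Arid5a. They were chosen by name for their role and not by a measured value, though with earlier results of these data known. They are 10 of the 25067 genes in the table. All 10 were among the 11279 genes tested, those whose mean exceeded 1 RPKM (tags scaled by library size and transcript length) in some group. RNA-seq libraries were made from bone marrow-derived macrophages (BMDMs) of male C57Bl6/J mice aged 6 to 12 weeks, grown for 7 days with L929-conditioned medium. BMDM-Nur77-KO came from whole-body knockout mice, in which Cre recombinase under the CMV promoter had deleted the loxP-flanked Nr4a1 gene (Nur77), and BMDM-WT came from wild-type mice. Cells of both genotypes were untreated (0 h) or received LPS at 100 ng/ml, and were collected after 1, 5 or 18 h, with 4 replicates in each of the 8 groups. The number of animals behind the replicates is not given in the sources used here, so p-values measure the spread between these libraries, which may be technical.

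Many cytokine mRNAs carry AU-rich elements or stem-loops in their 3′ untranslated region that mark them for rapid degradation. Proteins of the ZFP36 family (tristetraprolin and its relatives) bind AU-rich elements and recruit the CCR4-NOT deadenylase, Regnase proteins cut stem-loop mRNAs with an endonuclease domain, and Roquins bind the stem-loops and recruit deadenylases. KHSRP also promotes the decay of AU-rich mRNAs, whereas HuR (Elavl1) and Arid5a bind such mRNAs and stabilise them.

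Several of these factors carry the element themselves, and their sites are shown because the level of each factor is the quantity compared below. The core heptamer of the element (TATTTAT) was searched on the sense strand of the 3′ untranslated regions of the GENCODE transcripts matched to the members (GRCm38). It occurred in 7 of the 10 members, against 26.1% of 18839 genes, for which the longest 3′ untranslated region of each was taken. It occurred at least 3 times in 5 members, Zfp36, Zfp36l1, Zfp36l2, Rc3h2 and Elavl1, against 3.58% of genes. The median length of the regions over all these genes was 890 nt, shorter than those of most members given below. These shares were not adjusted for length, so they do not show an excess of sites for regions of that length. The 3 sites of Zfp36 lay in a region of only 774 nt. The 3 sites of Zfp36l1 lay in 1835 nt, those of Zfp36l2 in 1822 nt, those of Rc3h2 in 2095 nt and the 8 overlapping or neighbouring sites of Elavl1 in 4218 nt. Zc3h12c (3421 nt) and Rc3h1 (7181 nt) had 2 each, and the heptamer was not found in the regions of Zc3h12a (856 nt), Khsrp (1642 nt) and Arid5a (323 nt). The sites of the ZFP36 family, all on the minus strand, and 1 of Rc3h2 and of Elavl1 are given with the heptamer in capitals. The Elavl1 window also holds overlapping heptamers of its other sites, which are left in small letters.
Zfp36, chr7:28376969-28376991: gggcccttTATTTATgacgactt
Zfp36, chr7:28376954-28376976: gacgacttTATTTATtgtattaa
Zfp36, chr7:28376929-28376951: ttttatagTATTTATatatattg
Zfp36l1, chr12:80108425-80108447: tcaaaacgTATTTATtgccaaac
Zfp36l1, chr12:80108384-80108406: tttgttcaTATTTATcgggatga
Zfp36l1, chr12:80108170-80108192: tgttggatTATTTATtttagaaa
Zfp36l2, chr17:84184917-84184939: atttaactTATTTATtatcttgt
Zfp36l2, chr17:84184869-84184891: ccatactgTATTTATcgagtatg
Zfp36l2, chr17:84184683-84184705: gtatgtaaTATTTATttcattaa
Rc3h2, chr2:37374759-37374781: agctgcttTATTTATctttttca
Elavl1, chr8:4285787-4285809: aaattattTATTTATttatttat

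Promoters from RefSeq (GRCm38.p6), 250 bases before to 50 bases after the start, were given for 9 of the 10 members, with 2 for Zc3h12c. Those of Zfp36 and Zfp36l1 are shown because these paralogs both rose at 1 h and at 5 h lay on opposite sides of their resting levels. On both strands, the CArG box occurred in the promoter of Zfp36, starting 58 bases before the transcription start, and in 1.63% of all 32851 promoters. The AP-1 motif TGANTCA occurred in the promoters of Zfp36l1 (129 bases before the start) and Rc3h1 (133 bases before the start), and in 7.81% of all. A TATAAA box lay 29 bases before the start of Zfp36l1, and 13.6% of all promoters held one. An NF-kB motif was found in 1 member, Zc3h12c, and in 8.46% of all promoters. The cyclic AMP response element TGACGTCA (1.79% of all) and the NBRE AAAGGTCA, the motif bound by Nur77 monomers (1.51% of all), were not found in these windows of the members. Motifs are in capitals, the CArG box in Zfp36 and the AP-1 motif followed by the TATAAA box in Zfp36l1, and the windows are chr7:28379179-28379478 and chr12:80112964-80113263, both on the minus strand.
Zfp36 promoter: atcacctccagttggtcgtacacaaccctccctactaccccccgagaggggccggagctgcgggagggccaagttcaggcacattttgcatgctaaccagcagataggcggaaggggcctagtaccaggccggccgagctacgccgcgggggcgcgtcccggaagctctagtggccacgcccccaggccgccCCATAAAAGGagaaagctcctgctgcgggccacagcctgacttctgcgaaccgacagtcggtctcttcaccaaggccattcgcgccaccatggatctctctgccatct
Zfp36l1 promoter: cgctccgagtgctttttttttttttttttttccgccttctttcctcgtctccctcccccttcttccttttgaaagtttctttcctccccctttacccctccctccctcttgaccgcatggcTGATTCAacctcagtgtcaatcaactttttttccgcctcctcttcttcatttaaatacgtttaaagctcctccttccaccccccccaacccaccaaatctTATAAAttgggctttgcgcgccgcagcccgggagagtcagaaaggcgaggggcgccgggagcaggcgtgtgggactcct

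Totals per library were 8742362 to 15780926 tags with a median of 11847140. Nr4a1 was lower in every BMDM-Nur77-KO library than in every BMDM-WT library at 0 h (4.43 to 6.98 against 15.4 to 25.7 CPM) and at 1 h (146 to 242 against 358 to 484 CPM), and at 5 and 18 h no library exceeded 9 tags. The 8 macrophage markers summed to 11040 to 18830 CPM in every library. Markers of neutrophils summed to at most 52.4 CPM, of dendritic cells to at most 27 CPM, of B and T cells to at most 5.36 CPM, of fibroblasts to at most 1.88 CPM and of erythroid and mast cells to at most 0.533 CPM. Of these, Mcpt4 and Tpsb2 were at 0 in all libraries. At 1 h, the neutrophil markers summed to 43.5 to 52.4 CPM in BMDM-Nur77-KO and to 28.2 to 37.9 CPM in BMDM-WT. Of the 5 neutrophil markers tested, 2 were higher in BMDM-Nur77-KO at 1 h and 0 lower. Their part in the values of the members was not tested. BMDM-Nur77-KO replicate 1 at 5 h stood apart, with 17% of genes more than 2-fold from the mean of its group, followed by BMDM-Nur77-KO replicate 4 at 18 h with 6.61%, while the other libraries had 1.49% to 4.62%. Where a call of a member was lost or gained without these 2 libraries, both values are given. In bulk RNA, fewer cells of a type and less RNA per cell cannot be told apart.

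All of the decay factors passed the test for LPS at 5 h in both genotypes, and 8 in BMDM-WT and 5 in BMDM-Nur77-KO passed it at 1 h. In BMDM-WT at 1 h, 8 of the 10 were higher and none lower past the threshold, an adjusted p under 0.05, while 20.3% of all genes passed it. This and all later p-values are from the quasi-likelihood test of edgeR, with Benjamini-Hochberg adjustment over all genes tested, unless DESeq2 is named. At 5 h, 7 were higher and 3 lower, with 70% of all genes passing, and at 18 h 5 were higher and 5 lower, with 66.3%. The median log2 fold change of the members was 1.27 at 1 h, 0.98 at 5 h and 0.10 at 18 h, against -0.03, -0.14 and -0.01 over all genes. In BMDM-Nur77-KO, 5 members were higher and none lower at 1 h, with 12.2% of all genes passing. There, 7 were higher and 3 lower at 5 h (71.3% of all genes), and 5 were higher and 5 lower at 18 h (69.2%). With passing shares this large at 5 and 18 h, the number of members past the threshold says little about them, and their sizes are given below.

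**Figure D1:**
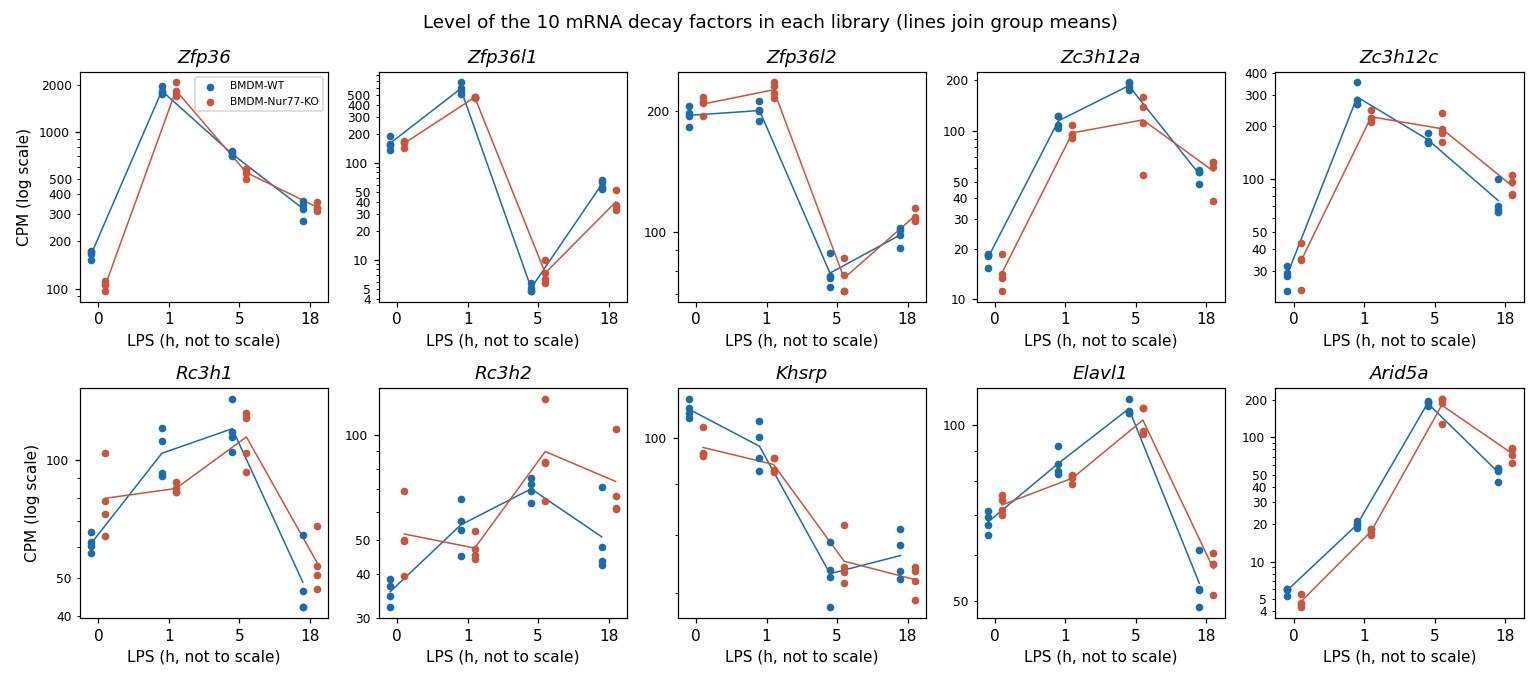
Level of each of the 10 genes in CPM on a logarithmic axis in the 32 libraries (points, red BMDM-Nur77-KO, blue BMDM-WT) by hours of LPS, with lines joining the group means. Zfp36 and Zc3h12c peak at 1 h, Zfp36l1 falls to between 4.77 and 9.9 CPM at 5 h, and Arid5a peaks at 5 h.

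Zfp36 encodes tristetraprolin, the founding member of its family. In BMDM-WT its level was 172, 152, 175 and 167 CPM (tags scaled by library size) before LPS, 1817, 1958, 1737 and 1797 CPM after 1 h, 731, 751, 708 and 696 CPM after 5 h, and 322, 362, 270.0 and 343 CPM after 18 h. No group overlapped with the next. The log2 fold change over 0 h was 3.46 ± 0.09 (SE, n = 4 against 4, adjusted p = 1.9e-24) at 1 h, 2.12 ± 0.08 at 5 h and 0.96 ± 0.08 at 18 h, so the mRNA was still 1.95-fold above its resting level at the last time. In BMDM-Nur77-KO the 0 h level was 106, 96.2, 108 and 112 CPM, below all BMDM-WT libraries. At 1 h both genotypes had reached the same range (2071, 1765, 1818 and 1699 CPM in BMDM-Nur77-KO), which made the log2 fold change over 0 h 4.13 ± 0.09 in the knockout.

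The largest fall among the members was that of Zfp36l1, whose protein binds the same AU-rich elements. In BMDM-WT it stood at 155, 191, 159 and 135 CPM at 0 h and rose to 554, 679.8, 514 and 589 CPM at 1 h. At 5 h it was at 4.77, 5.86, 5.09 and 4.84 CPM, and at 18 h at 66.1, 57, 63.5 and 54.1 CPM. The 4 groups did not overlap with each other. The log2 fold change over 0 h was 1.87 ± 0.13 at 1 h, -4.96 ± 0.16 at 5 h (31.1-fold lower, adjusted p = 2.9e-22) and -1.41 ± 0.13 at 18 h. Between 1 and 5 h the level fell 114-fold in BMDM-WT and 65.2-fold in BMDM-Nur77-KO (log2 -6.83 ± 0.17 and -6.03 ± 0.16).

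Zfp36l2, the third paralog, did not pass the test at 1 h (log2 0.04 ± 0.07, adjusted p = 0.71) and was lower later. Its 4 BMDM-WT libraries were at 182 to 205 CPM at 0 h, 72.7 to 88.7 CPM at 5 h and 91 to 102 CPM at 18 h, and the log2 fold change was -1.30 ± 0.07 at 5 h and -0.99 ± 0.07 at 18 h. Per transcript length, the 3 paralogs were at similar levels in resting BMDM-WT, at 59.7 ± 3.59, 53.5 ± 7.82 and 55.1 ± 2.68 RPKM (SD, n = 4) for Zfp36, Zfp36l1 and Zfp36l2. The RPKM of Zfp36 is a low estimate, since the length used (2790 nt) is longer than the RefSeq span of the gene (chr7:28376784-28379228). The summed RPKM of the family went from 168 ± 8.52 at 0 h to 907 ± 58.3 at 1 h, 283 ± 7.79 at 5 h and 164 ± 11.9 at 18 h. Zfp36 made up 35.6% of that sum before LPS and then 72.3%, 91.5% and 70.6% in order of time, while Zfp36l1 went from 31.7% to 0.607% at 5 h and returned to 12.4%. At 18 h the sum was thus back near its resting value with a different makeup.

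**Figure D2:**
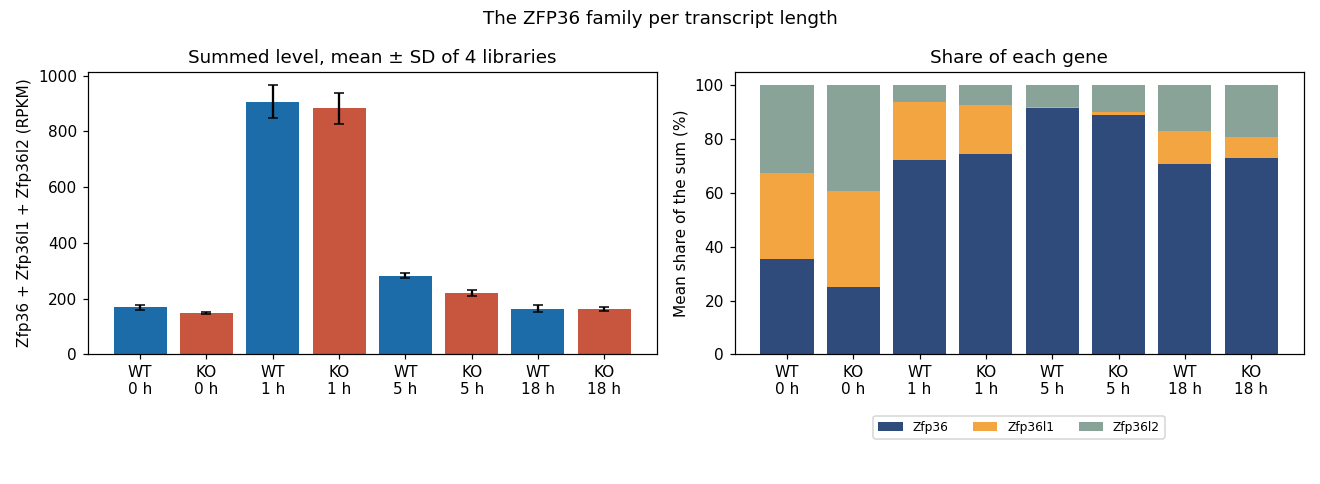
Left, the summed level of Zfp36, Zfp36l1 and Zfp36l2 in RPKM (bars, mean of 4 libraries, with SD) in the 8 groups, and right, the mean share of each gene in that sum in percent. The sum peaks at 907 RPKM in BMDM-WT and 882 RPKM in BMDM-Nur77-KO at 1 h, and Zfp36 takes 91.5% and 89% of it at 5 h.

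The Regnase genes both rose but peaked at different times. Zc3h12a, which encodes Regnase-1, was at 18.6, 15.3, 18 and 18.4 CPM in resting BMDM-WT. It reached 123, 122, 105 and 109 CPM after 1 h and 182, 194, 191 and 174 CPM after 5 h, and was back at 57.1, 56.7, 48.5 and 58.9 CPM after 18 h. Its log2 fold change was 2.71 ± 0.21, 3.40 ± 0.21 and 1.66 ± 0.20 at the 3 times, and the rise from 1 to 5 h passed the test (log2 0.69 ± 0.19, adjusted p = 0.0018). Zc3h12c, which encodes Regnase-3, went from 32, 27.9, 22.9 and 28.9 CPM to 266, 266, 279 and 352 CPM at 1 h and was already lower at 5 h, at 164, 161, 181 and 159.9 CPM. Its log2 fold change was 3.38 ± 0.16, 2.58 ± 0.16 and 1.43 ± 0.15 in order of time, and the fall from 1 to 5 h was -0.80 ± 0.15 (adjusted p = 1.6e-05). Zc3h12a and Zc3h12c were at 41.6 ± 3.34 and 47.4 ± 6.78 RPKM after 1 h and at 67.3 ± 3.33 and 27.2 ± 1.62 RPKM after 5 h. The 5 h levels of the pair did not overlap.

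The Roquin genes moved less. Rc3h1 rose in BMDM-WT at 1 h (log2 0.76 ± 0.15) and at 5 h (0.97 ± 0.15), from 57.9 to 65.5 CPM at 0 h to 105 to 144 CPM at 5 h. At 18 h it was at 42 to 64.6 CPM, overlapping with 0 h, and its log2 fold change of -0.33 ± 0.15 was just past the threshold (adjusted p = 0.049, with 0.085 by DESeq2). Rc3h2 rose by 0.63 ± 0.19, 0.98 ± 0.19 and 0.52 ± 0.19 on the log2 scale at 1, 5 and 18 h. Its 1 h call was lost without BMDM-WT replicate 4 at 1 h (adjusted p = 0.067) and its 18 h call without BMDM-WT replicate 3 at 18 h (adjusted p = 0.13). In that library, Rc3h2 was at 70.7 CPM while the other 3 were at 42.3 to 47.7 CPM, and Rc3h1 and Zc3h12c were highest there too. Across the 32 libraries, the deviations of Rc3h1, Rc3h2 and Zc3h12c from their group means had Pearson correlations of 0.83 to 0.88 with each other. All points share the libraries and their depth, and the deviation of all genes from the group mean correlated with the logarithm of transcript length at -0.25 to 0.26 within a library, the highest value being that of BMDM-WT replicate 3 at 18 h. The transcripts of these 3 genes were 11006, 5828 and 6133 nt long. The part of transcript length in these values was not tested.

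Khsrp and Elavl1, the ubiquitous decay factor and stabiliser, changed by less than 2-fold at all times in both genotypes. Khsrp was at 105 to 109 CPM in resting BMDM-WT and at 67.7 to 78.6 CPM at 5 h, with log2 fold changes of -0.12 ± 0.06 (adjusted p = 0.14) at 1 h, -0.55 ± 0.06 at 5 h and -0.49 ± 0.06 at 18 h. Elavl1 went the other way until 5 h, from 64.7 to 71.2 CPM at 0 h to 105 to 111 CPM at 5 h, with log2 fold changes of 0.33 ± 0.07 at 1 h and 0.64 ± 0.07 at 5 h. It then fell below its resting level, to 48.8 to 61.1 CPM at 18 h (log2 -0.35 ± 0.07, adjusted p = 3.2e-05).

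Arid5a, which protects Il6 mRNA from Regnase-1, had the largest rise of the 10 members. In BMDM-WT it was at 6.01, 5.28, 6.03 and 5.93 CPM before LPS. After 1 h it was at 21.4, 19.7, 20 and 18.5 CPM, after 5 h at 189, 191, 195 and 178 CPM and after 18 h at 54.1, 56.3, 43.7 and 55.8 CPM, with no overlap between the groups. The log2 fold change was 1.78 ± 0.13, 5.02 ± 0.13 (32.4-fold, adjusted p = 1.9e-24) and 3.18 ± 0.13. In resting BMDM-WT, Arid5a was the lowest of the 10 per transcript length, at 2.56 ± 0.16 RPKM, and at 5 h only Zfp36 (259 ± 8.72 RPKM) was above its 82.9 ± 3.14 RPKM. The next gene in that order, Zc3h12a, did not overlap with it in RPKM at 5 h. This order at 5 h rests on the length of the kept Arid5a transcript, 2270 nt. Another Arid5a transcript, with 99.8% of the tags of the kept row, was 4640 nt long. With that length the RPKM of Arid5a would be lower, and the order at 5 h need not hold.

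The values in BMDM-Nur77-KO, each against its own libraries at 0 h, were as follows. Zfp36l1 was at 161, 170.5, 164 and 143 CPM before LPS, rose to 475, 464, 484 and 485 CPM after 1 h (log2 1.58 ± 0.12) and was 21.8-fold below rest after 5 h (log2 -4.45 ± 0.15). Zfp36l2 was at 194 to 216 CPM before LPS and at 71.1 to 86.2 CPM after 5 h (log2 -1.44 ± 0.07). Zc3h12a was at 11.2, 14.1, 13.4 and 18.6 CPM before LPS and at 108, 94.4, 90.6 and 95.9 CPM after 1 h (log2 2.76 ± 0.21), and Zc3h12c went from 23.2 to 43.3 CPM to 210.1 to 245 CPM (log2 2.73 ± 0.16). The 3 members that passed at 1 h in BMDM-WT but not here were Rc3h1 (log2 0.08 ± 0.14, adjusted p = 0.87), Rc3h2 (-0.13 ± 0.19, adjusted p = 0.84) and Elavl1 (0.15 ± 0.07, adjusted p = 0.16). The difference of the response at 1 h did not pass for any of them (adjusted p = 0.403 to 0.455). By DESeq2, Elavl1 did pass in BMDM-Nur77-KO at 1 h (adjusted p = 0.040), 1 of 6 members called there, with 13.2% of all genes passing. Khsrp was at 96 to 102 CPM before LPS and at 71.6 to 81.8 CPM after 5 h (log2 -0.38 ± 0.06). Arid5a went from 4.63, 5.48, 4.28 and 4.6 CPM to 129, 188, 205 and 204 CPM after 5 h, a rise of 38-fold (log2 5.25 ± 0.14). In each rise or fall named here with its CPM, no library before LPS overlapped the libraries after it.

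Between successive times, 3 members rose and 5 fell from 1 to 5 h in BMDM-WT, where 64.8% of all genes passed, and 2 rose and 7 fell from 5 to 18 h (69.1%). The 2 that rose from 5 to 18 h were Zfp36l1 (log2 3.55 ± 0.16) and Zfp36l2 (0.32 ± 0.07), the members that had been lowest at 5 h relative to rest. In BMDM-Nur77-KO, 4 rose and 4 fell from 1 to 5 h (70.7% of all genes passing), and 2 rose and 6 fell from 5 to 18 h (68.8%). The 2 that rose were again Zfp36l1 (log2 2.44 ± 0.15) and Zfp36l2 (0.51 ± 0.07). From 1 to 5 h in BMDM-Nur77-KO, Zc3h12a did not pass with all libraries (log2 0.26 ± 0.19, adjusted p = 0.22) and passed without the 2 libraries that stood apart (log2 0.49, adjusted p = 0.00012), and Zc3h12c was likewise at -0.22 ± 0.14 (adjusted p = 0.16) and at -0.34 (adjusted p = 0.029). In BMDM-WT from 1 to 5 h, Rc3h2 did not pass with all libraries (adjusted p = 0.10). It passed without the 2 libraries that stood apart (log2 0.35, adjusted p = 0.026). With the compared libraries only, all 10 members passed, as did 73% of all genes.

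The genotypes were compared to ask which of these factors differed in level without Nur77. At 0 h, 1 of the 10 members passed, with 12.7% of all genes passing. This was Zfp36, lower in BMDM-Nur77-KO at 96.2 to 112 CPM against 152 to 175 CPM (log2 -0.66 ± 0.08, 1.58-fold lower, adjusted p = 6.2e-07). The groups did not overlap, and the largest adjusted p on leaving out 1 library was 1.0e-05. Rc3h2 was at 39.4 to 68.9 CPM in BMDM-Nur77-KO and at 32.1 to 38.7 CPM in BMDM-WT, without overlap, and missed the threshold (log2 0.55 ± 0.19, adjusted p = 0.052). It passed by DESeq2 (adjusted p = 0.028) and reached 0.26 without BMDM-Nur77-KO replicate 1 at 0 h, the library with 68.9 CPM. Without the 2 libraries of later times that stood apart, Rc3h2 (log2 0.54, adjusted p = 0.0050) and Rc3h1 (0.38, adjusted p = 0.033, against 0.086 with all libraries) passed, in a fit where 25.5% of all genes did.

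At 1 h none of the members passed, with 6.51% of all genes passing. At an unadjusted p under 0.05 there were 4, with 17.1% of all genes, and by DESeq2 none. Zfp36 was at the same level in both genotypes (log2 0.01 ± 0.08), and 6 members, Zfp36l1, Zfp36l2, Zc3h12c, Rc3h1, Elavl1 and Arid5a, did not overlap between the genotypes, as did 19.4% of all genes. Of these, Zfp36l1 was at 464 to 485 CPM against 514 to 679.8 CPM (log2 -0.29 ± 0.12, adjusted p = 0.18), and Zc3h12c at 210.1 to 245 CPM against 266 to 352 CPM (log2 -0.37 ± 0.14, adjusted p = 0.14). Both passed once the 2 libraries that stood apart at later times were left out of the fit, with adjusted p of 0.020 and 0.0499 and log2 fold changes of -0.29 and -0.37, and 11.3% of all genes passed in that fit.

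At 5 h, 3 members passed, with 24.2% of all genes passing. Zfp36 was lower in BMDM-Nur77-KO at 501, 576, 546 and 575 CPM, below the 696 to 751 CPM of BMDM-WT (log2 -0.39 ± 0.08, adjusted p = 6.6e-04). Zc3h12a was lower at 54.4, 112, 159 and 139 CPM, also without overlap with the 174 to 194 CPM of BMDM-WT (log2 -0.67 ± 0.19, adjusted p = 0.011). The lowest value came from replicate 1, the library that stood apart, and without both such libraries the log2 fold change was -0.44 (adjusted p = 0.0034). In a fit to the 8 libraries of 5 h alone, the difference in Zc3h12a did not pass (adjusted p = 0.19). Arid5a was also lowest in BMDM-Nur77-KO replicate 1, at 129 CPM against 188 to 205 CPM in the other 3, and its genotypes overlapped. Zfp36l1 was higher in BMDM-Nur77-KO at 9.9, 7.36, 6.31 and 5.78 CPM, overlapping with the 4.77 to 5.86 CPM of BMDM-WT (log2 0.51 ± 0.18, adjusted p = 0.037). This call was lost without the libraries that stood apart (log2 0.34, adjusted p = 0.16), and the highest value was again that of replicate 1. The summed dendritic cell markers were also highest in that library, at 27 CPM against 13.1 to 19 CPM in BMDM-WT at 5 h. This sum was 1.22 to 1.5 CPM in BMDM-WT at 0 h, so it rose with LPS in BMDM-WT too. The summed macrophage markers at 5 h were at 13270 to 16100 CPM in BMDM-Nur77-KO and at 16540 to 17970 CPM in BMDM-WT, with 3 of the 8 lower and 1 higher. The part of these markers in the values of the members was not tested.

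At 18 h, 3 members passed, with 21.5% of all genes passing. Arid5a was higher in BMDM-Nur77-KO at 72, 81.5, 80.8 and 62.1 CPM, above the 43.7 to 56.3 CPM of BMDM-WT (log2 0.50 ± 0.11, 1.41-fold, adjusted p = 9.5e-04). Zfp36l1 was lower at 37.4, 32.7, 36.2 and 52.4 CPM, below the 54.1 to 66.1 CPM of BMDM-WT (log2 -0.60 ± 0.13, adjusted p = 7.1e-04). Both differences were larger without the 2 libraries that stood apart, at 0.57 and -0.76. Rc3h2 was higher at 61.2, 61.7, 67 and 104 CPM against 42.3, 47.7, 70.7 and 43.6 CPM (log2 0.53 ± 0.19, adjusted p = 0.041), with overlap, and did not pass without the libraries that stood apart (log2 0.31, adjusted p = 0.14). Zfp36l2 was at 106 to 115 CPM against 91 to 102 CPM and did not pass (log2 0.15 ± 0.07, adjusted p = 0.12). It passed by DESeq2 (adjusted p = 0.041), which called 4 members and 23.2% of all genes. Zfp36 was at 312 to 355 CPM against 270.0 to 362 CPM (log2 0.03 ± 0.08), and the genotypes overlapped. The summed macrophage markers were at 11040 to 12650 CPM in BMDM-Nur77-KO and at 14020 to 14670 CPM in BMDM-WT at this time, with 4 of the 8 markers lower and 1 higher, and the summed dendritic cell markers were at 13.5 to 21.7 against 5.17 to 7.12 CPM, with both of the 2 tested of 6, Xcr1 and Clec9a, higher. Their part in the differences of the members was not tested.

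**Figure D3:**
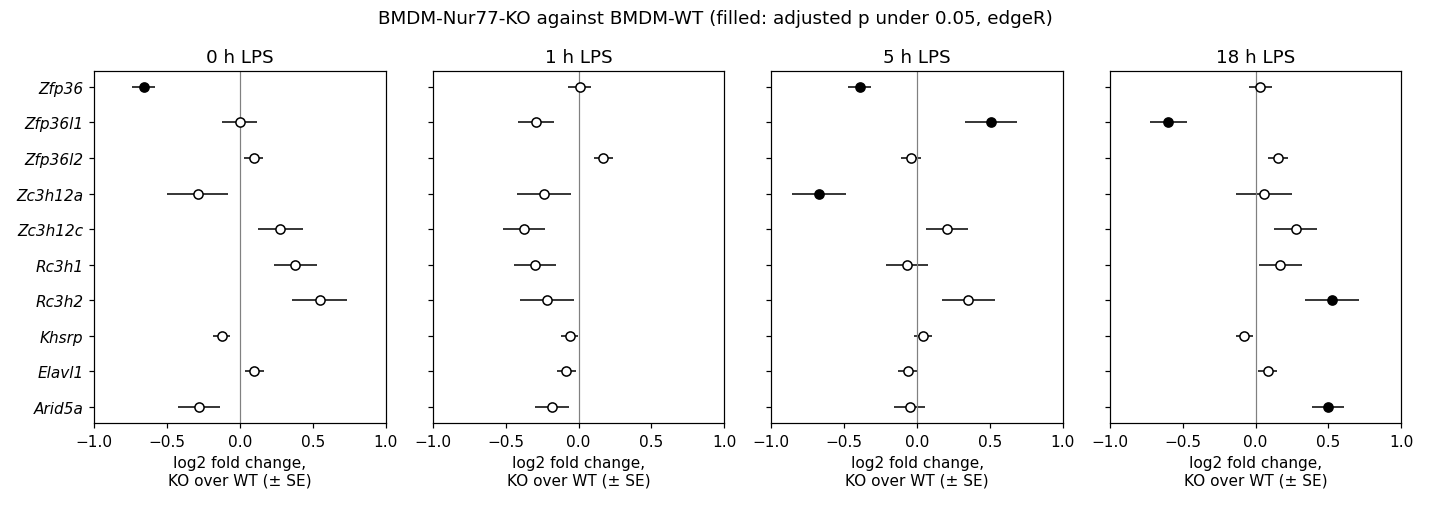
Log2 fold change of BMDM-Nur77-KO over BMDM-WT with its SE for each of the 10 genes (4 libraries against 4), 1 panel for each time of LPS. Filled points passed at an adjusted p under 0.05, and Zfp36 lies at -0.66, 0.01, -0.39 and 0.03 in the order of the panels.

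The response to LPS itself was compared between the genotypes with an interaction term, which shares the 0 h libraries across the times. At 1 h, Zfp36 was 1 of 8 genes that passed in the whole table (0.0709% of all genes), with a log2 difference of the response of 0.67 ± 0.11 (adjusted p = 0.0083). Its adjusted p reached 0.044 on leaving out 1 library. The share of genes passing depended on the fit. It was 0.328% by DESeq2 and 2.43% with the compared libraries only, where 3 members passed. At 5 h none of the members passed, with 3.1% of all genes passing, while 3 had an unadjusted p under 0.05, as did 15.2% of all genes, and none passed by DESeq2. At 18 h, 3 members passed, with 9.4% of all genes passing. Zfp36 (0.69 ± 0.11, adjusted p = 6.4e-05) and Arid5a (0.78 ± 0.18, adjusted p = 0.0040) responded more in BMDM-Nur77-KO. Zfp36l1 was lower (-0.60 ± 0.18, adjusted p = 0.027), and for it the adjusted p reached 0.072 without BMDM-Nur77-KO replicate 2 at 18 h. Without the 2 libraries that stood apart, the difference was -0.76 for Zfp36l1 (adjusted p = 1.1e-04), and Zc3h12a passed as well (0.49, adjusted p = 0.032, against 0.35 ± 0.28 and 0.56 with all libraries), while 17.9% of all genes passed. For Zfp36, the levels of the genotypes overlapped at 1 and 18 h and did not overlap at 0 h.

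The genes most like 5 of the strongly regulated members over the 32 libraries were named by the Pearson correlation of log2 CPM, a description in which all points share the 8 groups. For Zfp36 these were Il10 (r = 0.99), Csrnp1 and Dusp2. Zfp36l2 was most like Armc2 (0.98), Ercc6 and Mical2. Zc3h12a was most like Tnfaip2 (0.97), Ccl4 and Il1b, and Zc3h12c was most like Zfp719 (0.98), Nfkbiz and Sowahc. Arid5a was most like Cd40 (0.99), Gch1 and Cd69. Of these, Il10, Ccl4, Il1b and Nfkbiz are also in the list of target mRNAs below.

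The further genes of mRNA decay were followed in lists, each named after its step. In BMDM-WT at 5 h, 6 of 19 deadenylation genes rose and 6 fell, 12 called where 70% of all genes were, with a median log2 fold change of -0.10. At 1 h the deadenylation genes with the largest rise were Btg2 (3.29 ± 0.15) and Btg1 (1.74 ± 0.07), adaptors that bring CCR4-NOT to mRNAs, and Btg2 was below rest at 5 h (21.7 ± 1.79 against 43.6 ± 6.32 CPM). At 5 h, Cnot7 (0.92 ± 0.13), a deadenylase subunit, and Cnot4 (0.79 ± 0.20) rose and Pan2 fell (-0.97 ± 0.21). Of 16 decapping genes, 5 rose and 2 fell at 5 h, a smaller share than the 70% of all genes, with a median of 0.13. The decapping enzyme Dcp2 went from 58.3 ± 0.99 to 386 ± 22.1 CPM (2.73 ± 0.13) and its activator Dcp1a from 31.1 ± 0.95 to 134 ± 3.99 CPM (2.11 ± 0.06), whereas Lsm2 (-0.83 ± 0.13) and Dcp1b (-0.40 ± 0.17) fell.

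Of 16 RNA exosome genes, 11 were lower and none higher at 5 h in BMDM-WT, with a median of -0.61, and 11 were lower and none higher at 18 h, where 70% and 66.3% of all genes passed in either direction. In BMDM-Nur77-KO, 10 were lower and 3 higher at 5 h (median -0.52), and 10 were lower and 2 higher at 18 h (median -0.42), with 71.3% and 69.2% of all genes passing. The largest falls at 5 h were those of Exosc6 (-2.20 ± 0.17) and Exosc7 (-1.39 ± 0.17), subunits of the exosome ring. Of 19 tested genes of other mRNA-binding regulators, 10 rose and 4 fell at 5 h, a passing share near that of all genes, with a median of 0.25. N4bp1, an endonuclease related to Regnase, rose from 51.2 ± 3.25 to 369 ± 6.78 CPM (2.85 ± 0.07) and Cpeb4 by 1.70 ± 0.20, while Tial1 (-0.62 ± 0.10) and Hnrnpa0 (-0.60 ± 0.11) fell. Of 17 genes whose products modify or cleave the factors, 13 rose and 2 fell at 5 h, with a median of 0.66. Malt1, the protease that cleaves Regnase-1 and Roquins, rose by 3.05 ± 0.15, and Dusp1, the phosphatase that switches off p38, by 4.94 ± 0.11 at 1 h and 2.86 ± 0.10 at 5 h. Map2k6, a kinase upstream of p38, was at 0 to 7 tags per library at 5 h and 32 to 52 at 0 h (-2.56 ± 0.35), and Irak1 fell by 0.69 ± 0.07 on the log2 scale.

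The known target mRNAs of the factors, 25 tested of a list of 26 cytokines, chemokines and regulators, were mostly induced. In BMDM-WT, 24 rose and none fell at 1 h, and 23 rose and 2, Ets1 (-1.95 ± 0.21) and Nfkbid (-0.99 ± 0.20), fell at 5 h, with 20.3% and 70% of all genes passing. Il6 was at 0 tags in all 4 resting BMDM-WT libraries and at 1700 to 2180 tags at 5 h, at least 1130-fold higher against a floor of 3 tags per library. In BMDM-Nur77-KO against BMDM-WT, 3 were higher and 6 lower at 0 h, none higher and 7 lower at 1 h, 6 higher and 7 lower at 5 h, and 17 higher and none lower at 18 h. Of all genes, 12.7%, 6.51%, 24.2% and 21.5% passed in these comparisons. Without the 2 libraries that stood apart, 1 was higher and 9 lower at 1 h, and the counts at 18 h were again 17 and 0. The lower macrophage and higher dendritic cell marker sums given above for BMDM-Nur77-KO at 18 h stood beside this difference, and their part in it was not tested. The median at 18 h was 0.64 with genes at or under 3 tags at their bound or left out, against -0.01 over all genes, and Il6 had the largest difference (52.2 ± 9.29 against 4.10 ± 1.45 CPM, log2 3.66 ± 0.24).

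Between the genotypes at 18 h, where 21.5% of all genes passed, the deadenylation (4 of 19) and decapping (4 of 16) lists had passing shares near that of all genes, and the exosome list (1 of 16) had a smaller one. Of the 17 genes whose products modify or cleave the factors, 6 had a higher level in BMDM-Nur77-KO and 3 a lower one, also without the libraries that stood apart, with Malt1 at 568 ± 108 against 239 ± 25.5 CPM (log2 1.25 ± 0.14) and Map2k6 lower (-1.64 ± 0.44, with at most 12 tags per library). Of the other mRNA-binding regulators, 5 were higher and 1 lower, Cpeb4 by 0.98 ± 0.20 and Zc3h12d, a further Regnase gene, by -0.63 ± 0.09. Of the deadenylation genes, 3 were higher, with Cnot4 at 0.71 ± 0.19 and at 0.46 (adjusted p = 0.0025) without the libraries that stood apart, and 1, Cnot10, was lower (-0.31 ± 0.09). The call of Cnot4 was lost without BMDM-Nur77-KO replicate 4 alone (adjusted p = 0.081). Of the decapping genes, 3 were higher, including the exonuclease Xrn1 (0.50 ± 0.16), and 1, Lsm2, was lower (-0.68 ± 0.15), both with overlap between the genotypes. Xrn1 did not pass without the libraries that stood apart (0.35, adjusted p = 0.073) and was lost without any of 4 of the 8 libraries compared (adjusted p up to 0.16, without BMDM-Nur77-KO replicate 4). A single exosome gene, Exosc10, differed (-0.21 ± 0.07), and it did not pass without the libraries that stood apart, where no exosome gene passed.

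**Figure D4:**
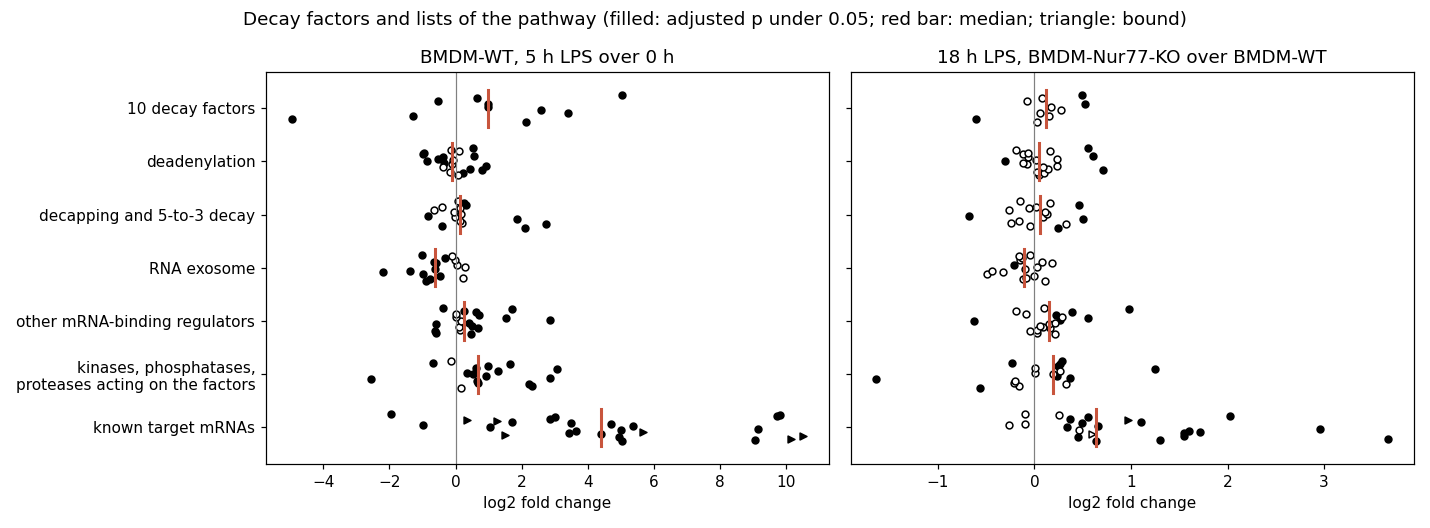
Log2 fold change of every gene tested in the 10 decay factors and 6 lists of the pathway, at 5 h over 0 h in BMDM-WT (left) and in BMDM-Nur77-KO over BMDM-WT at 18 h (right), with filled points passing at an adjusted p under 0.05, red bars at the medians and triangles at bounds for genes with at most 3 tags in every library of a group. The exosome list has a median of -0.61 at 5 h, and the target mRNAs have a median of 0.64 at 18 h.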

How the data were processed

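Strand-specific RNA-seq libraries (32, 4 per group) were analysed. The authors aligned reads to mm10 with HISAT2 2.1.0 (from the submitters' processing notes) and counted tags on RefSeq transcripts, and they deposited expected counts without normalization. All values are multiples of 0.5, 28.6% are not whole, and they were rounded. Whether counting used the strand is not given in the sources used here, so reads of a gene and an antisense partner cannot be told apart. Of 42361 transcripts, 42203 were named through RefSeq, 65 through GENCODE and 93 not at all (0.233% to 1.37% of tags, left out). Because isoform rows share reads, 1 row per gene was used, that of the transcript with most tags on average. In Arid5a, Rc3h2 and Zc3h12c the other rows held 94.8% to 99.9% of the kept row. Intervals from tags cover counting error only.

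CPM and RPKM (GENCODE transcript lengths, with the length of another transcript for Zc3h12c) were computed after TMM scaling. edgeR 4.0.16 in R 4.3.3 fitted 1 quasi-likelihood model of the 8 groups to all genes whose mean exceeded 1 RPKM in some group, and a gene was called at an adjusted p under 0.05 with no limit on the fold. The procedure was tested on simulated data with the same spread for all genes and no library that stood apart. That test therefore does not cover the libraries that did stand apart here. Alternatives were DESeq2 1.42.0, DESeq2 size factors, filterByExpr (12215 genes), no filter, the compared libraries only, a replicate block, summed transcripts, a limit on the fold, leaving out each library and, chosen after seeing the data, leaving out 2 libraries together. The members, lists and tests were chosen with earlier results of these data known, and the lists give no independent support. Named genes of the 6 lists were, among those passing, the 2 with the largest change each way in BMDM-WT at 1 and 5 h and the 1 each way in BMDM-Nur77-KO against BMDM-WT at 18 h. For members with a log2 fold change over 1 in BMDM-WT, the 3 genes with the highest correlation were named. The genes most like Zfp36l1 are not reported here.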

Additional observations from a re-analysis of the deposited data

Results flagged for a closer look

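The response of a member to LPS differed between the genotypes by a test of the interaction in 4 cases. The log2 difference, BMDM-Nur77-KO minus BMDM-WT, was 0.67 for Zfp36 at 1 h, 0.69 for Zfp36 at 18 h, -0.60 for Zfp36l1 at 18 h and 0.78 for Arid5a at 18 h.

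A single library lay far from the other 3 of its group, with a gap past Dixon's 95% limit as a share of the range of the group in CPM, in 7 of 80 groups of 4 libraries, and chance gives about 1 in 20. The gap was 0.845 of the range for Zc3h12a and 0.865 for Rc3h2 in BMDM-Nur77-KO replicate 4 at 18 h, the library with 6.61% of genes off its group. It was 0.832 for Zc3h12a and 0.867 for Arid5a in BMDM-WT replicate 2 at 0 h, 0.844 for Zc3h12c in BMDM-WT replicate 4 at 1 h, 0.854 for Zc3h12c in BMDM-WT replicate 3 at 18 h and 0.923 for Khsrp in BMDM-Nur77-KO replicate 2 at 0 h.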

How the results depend on the processing

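Of 2960 values of single members under the alternatives, 2883 stayed on their side of the threshold, 47 lost the call and 30 gained one. None changed direction where the main or the alternative value passed. Values that passed in neither could change sign. For genotype at 18 h, Zfp36 had a log2 fold change of 0.03 with all libraries and -0.0045 without the 2 that stood apart. With a limit on the log2 fold change (1 for LPS and times, 0.58 for genotype), the members called were 5, 6 and 4 for LPS at 1, 5 and 18 h in BMDM-WT, 6 and 5 at 5 and 18 h in BMDM-Nur77-KO, 4 from 1 to 5 h in both genotypes, 5 from 5 to 18 h in BMDM-Nur77-KO, and 1 each for genotype at 5 and 18 h. Of all genes, this limit left 5.19%, 33.7% and 27.4%, then 32.6% and 31.8%, 30.2% and 31.2% (BMDM-WT and BMDM-Nur77-KO), 28.6%, and 8.73% and 9.82%. For genotype at 0 h, 2 were called by DESeq2 (15.2% of all genes) and with DESeq2 size factors (12.3%). With the compared libraries only, 3, 5 and 1 were called for genotype at 0, 1 and 5 h and 3 for the interaction at 1 h, with 21.9%, 15.4%, 3.57% and 2.43% of all genes, against 12.7%, 6.51%, 24.2% and 0.0709% with all libraries. Without the 2 libraries that stood apart, 3 and 2 were called for genotype at 0 and 1 h, with 25.5% and 11.3% of all genes. The cause was not tested. Leaving out 1 library gave 1 to 3 members for genotype at 0 h, where Rc3h1 and Rc3h2 were added without BMDM-Nur77-KO replicate 4 at 0 h. The call of Zfp36l1 for genotype at 5 h was lost without any of 5 libraries (adjusted p up to 0.25, without BMDM-Nur77-KO replicate 1), and that of Rc3h2 at 18 h reached 0.27 without BMDM-Nur77-KO replicate 4. Rc3h1 for LPS at 18 h in BMDM-WT was lost without any of 7 of the 8 libraries compared (adjusted p up to 0.15), Rc3h2 from 5 to 18 h in BMDM-WT without any of 5 (up to 0.11) and the Zfp36l1 interaction at 18 h without any of 9 (up to 0.072). Rc3h2 for LPS at 18 h in BMDM-Nur77-KO (log2 0.50, adjusted p = 0.017) was lost without replicate 4 at 18 h (log2 0.29, adjusted p = 0.15) or at 0 h (0.077), and without the 2 libraries that stood apart (0.29, 0.079). Zfp36l1 had 41 to 91 tags per library at 5 h, which limits its precision there.

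Replicate numbers showed no clear pairing of the libraries. Of 112 pairs with the same number, 22 had a correlation over 0.1, with a range of -0.63 to 0.37. For 2 of 32 libraries the mean correlation was highest with their own number. How the replicates were made is not given in the sources used here, so these values cannot exclude a pairing. With a replicate block, the call of Rc3h2 for genotype at 18 h was lost (log2 0.52, adjusted p = 0.057), and no other call of a member changed.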
